A study of Mus musculus with 8 samples.

Results

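Transcripts of 31 mouse genes that make, sense, move or export cholesterol were followed in MB21 cells, a medulloblastoma line with a ptch mutant genotype that was grown unattached. The genes were a given list, chosen with earlier results of these data known. They were found by symbol among the 55416 gene identifiers counted in every library. RNA was sequenced from 4 libraries of cells kept for 5 days with 10 uM DS-1-38, a derivative of benzarone, called DS38 here, and from 4 libraries of cells kept for the same 5 days with the DMSO vehicle. Both groups carry the ptch mutation and come from the same single line, and the labels leave unsaid whether the 4 libraries of a group were grown as separate cultures. The p-values therefore cover only the spread of these libraries, part or all of which may be technical. The libraries held 17142397 to 28476019 reads counted in genes.

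Cholesterol is built from acetyl-CoA by the mevalonate pathway, which leads through farnesyl diphosphate to squalene, is closed into the ring of lanosterol and is then trimmed to cholesterol. When sterols run low in the endoplasmic reticulum, Insig proteins release Scap, which escorts the transcription factor SREBP2 (gene Srebf2) to the Golgi for cleavage, and SREBP2 then switches on the synthesis genes. When sterols are plentiful, oxysterols bind the LXR receptors (genes Nr1h3 and Nr1h2), which switch on export pumps and Mylip, an enzyme that marks lipoprotein receptors for degradation. Sterols also bind Smoothened, the signal transducer that Ptch1 holds in check, which gives the pathway a particular place in Hedgehog-driven tumours of the cerebellum.

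The granule neuron lineage markers expected of such a tumour were present, with all 8 above the filter on low counts and a summed level of 1767 to 1828 CPM in DS38 libraries and 1564 to 1634 CPM in DMSO libraries (CPM are counts scaled to library size with TMM factors). Of these 8 markers, 5 rose and 2 fell by the test described below, which called 39.5% of all tested genes. Markers of microglia and macrophages, of endothelium and of fibroblasts were scarce. The 6 microglia and macrophage genes summed to 1.51 to 1.96 CPM in DS38 and 0.87 to 1.53 CPM in DMSO. The 4 endothelial genes summed to 2.24 to 2.48 CPM in DS38 and 0.883 to 2.61 CPM in DMSO. For the 5 fibroblast genes the sums were 1.46 to 1.90 CPM in DS38 and 0.522 to 1.04 CPM in DMSO. Oligodendrocyte genes (6) summed to 11.1 to 12.6 CPM in DS38 and 10.3 to 12.8 CPM in DMSO, mostly Olig1. Astrocyte genes (5) summed to 111 to 114 CPM in DS38 and 118 to 123 CPM in DMSO, nearly all of it Slc1a3. By the same test Slc1a3 fell (109 CPM in DS38, 119 in DMSO), while the low Gfap rose (3.07 CPM in DS38, 1.83 in DMSO). The endothelial gene Tek (0.747 CPM in DS38, 0.318 in DMSO) and the fibroblast gene Col1a1 (0.798 and 0.233), both very low, also rose. The groups overlapped for Tek, with 0.670 to 0.895 CPM in DS38 libraries and 0.0802 to 0.815 CPM in DMSO libraries. The microglial gene Cx3cr1 and the endothelial gene Cldn5 drew 0 reads in each of the 8 libraries, a result compatible with a level of at most 0.175 CPM in the smallest library, by counting error only. The part of these markers in the results was not tested.

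The promoters of 4 of the members are shown first, each 300 bases long from 250 bases before to 50 bases after a transcription start. They are from RefSeq on the build GRCm38.p6, written 5′ to 3′ along the gene. The 4 members are Hmgcs1 and Cyp51, synthesis genes that fell, and Abca1 and Mylip, LXR target genes that showed the largest rises. Of the 19 synthesis enzymes 5 fell and 4 rose, where 20.7% of all tested genes fell and 18.8% rose. The promoters of those that rose, Mvd, Lss, Hsd17b7 and Dhcr7, are not shown. Capitals mark the exact letters TCACNCCAC of a sterol response element, where SREBP binds, and CCAAT boxes, where the cofactor NF-Y binds, on either strand. In Abca1 and Mylip capitals would also mark CACGTG E-boxes and matches to the LXR element, a direct repeat of AGGTCA spaced by 4 bases, with up to 3 mismatches, of which only Abca1 had one each. Hmgcs1, which fell, also has a match to the LXR element with 3 mismatches, 158 bases before its start, left in small letters here. Sterol response element matches with 1 mismatch were left in small letters too. They lie 220 bases before the start in Hmgcs1, 108 bases before it in Cyp51 and 128 bases before it in Mylip.
Hmgcs1 (chr13:119690101-119690400, + strand): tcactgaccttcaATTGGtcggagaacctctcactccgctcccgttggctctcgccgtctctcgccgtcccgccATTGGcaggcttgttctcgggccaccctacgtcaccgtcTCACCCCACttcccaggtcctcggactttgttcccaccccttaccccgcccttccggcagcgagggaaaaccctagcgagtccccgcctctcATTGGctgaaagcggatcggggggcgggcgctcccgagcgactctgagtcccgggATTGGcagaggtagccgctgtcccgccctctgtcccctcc
Cyp51 (chr5:4104648-4104947, - strand): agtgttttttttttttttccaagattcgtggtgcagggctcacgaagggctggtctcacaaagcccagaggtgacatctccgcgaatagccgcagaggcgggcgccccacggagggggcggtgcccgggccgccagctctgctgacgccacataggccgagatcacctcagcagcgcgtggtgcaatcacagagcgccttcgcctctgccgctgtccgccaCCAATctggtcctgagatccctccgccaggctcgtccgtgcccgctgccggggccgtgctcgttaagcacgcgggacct
Abca1 (chr4:53159846-53160145, - strand): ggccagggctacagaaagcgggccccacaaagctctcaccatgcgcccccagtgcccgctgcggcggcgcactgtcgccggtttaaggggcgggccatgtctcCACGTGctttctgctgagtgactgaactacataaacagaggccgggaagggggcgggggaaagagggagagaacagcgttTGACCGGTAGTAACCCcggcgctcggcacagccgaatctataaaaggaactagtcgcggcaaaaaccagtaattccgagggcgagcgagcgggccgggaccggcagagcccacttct
Mylip (chr13:45389492-45389791, + strand): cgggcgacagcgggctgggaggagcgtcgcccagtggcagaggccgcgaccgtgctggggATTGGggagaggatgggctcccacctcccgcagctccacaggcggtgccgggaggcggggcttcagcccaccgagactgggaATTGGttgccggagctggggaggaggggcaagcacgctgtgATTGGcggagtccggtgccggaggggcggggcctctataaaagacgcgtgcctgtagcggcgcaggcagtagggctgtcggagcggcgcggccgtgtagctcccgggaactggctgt

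Of the 31 members, 25 had a promoter in the table, and Sqle, Fdft1, Fdps, Npc1, Stard4 and Abcg1 had none. CCAAT boxes were common among them, in 20 of the 25 genes (80%) against 41.1% of 27025 genes with a promoter of the same length. Of these 20 genes, 5 rose, 5 fell and 10 did not pass the test, which called 39.5% of all tested genes. The exact sterol response element letters stood in 1 member, Hmgcs1 (137 bases before the start), and in 1.44% of all genes. With 1 mismatch allowed, they stood in 12 of the 25 members (48%) and in 26.7% of all genes. Of these 12 members, 3 rose, 3 fell and 6 did not pass. The E-box letters stood in 6 of 25 members, of which 3 rose, 1 fell and 2 did not pass, and in 8.09% of all genes. The direct repeat of LXR had no exact match in any member. With 2 mismatches it matched 1 member, Dhcr7, and 3.47% of all genes. With 3 mismatches, a limit set after the windows were seen, it matched 7 of 25 members and 24.5% of all genes. These 7 were Hmgcs1, Pmvk, Tm7sf2, Dhcr7, Insig1, Insig2 and Abca1, of which 2 rose, 2 fell and 3 did not pass. A letter match is not a binding site, and these windows hold only the start of each gene.

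Transcript levels per length spanned a wide range along the pathway. In units of CPM per kilobase of the deposited gene length, Cyp51, the lanosterol demethylase gene, had the highest level of the 31 in DMSO, with 47.8 in DS38 and 60.2 in DMSO. Insig1 (55.3 and 55.4 CPM per kilobase in DS38 and DMSO), Lbr (47.6 and 47.9) and Hmgcs1 (42.9 and 47.4) came next, and Hmgcs1, the lowest of these in DMSO, was above 93.1% of tested genes there. Apart from Fdps, the lowest of the enzymes was Tm7sf2, the second sterol C14 reductase gene beside Lbr, with 2.24 CPM per kilobase in DS38 and 2.65 in DMSO. Of the LXR and export genes only Nr1h2 exceeded 1 CPM per kilobase. Nr1h3, the LXR alpha gene, had 0.644 CPM per kilobase in DS38 and 0.706 in DMSO, against 9.65 and 10.7 for Nr1h2, the LXR beta gene. The export pump genes Abca1 (0.921 and 0.448 CPM per kilobase in DS38 and DMSO) and Abcg1 (0.0695 and 0.0527) were low as well.

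**Figure D1:**
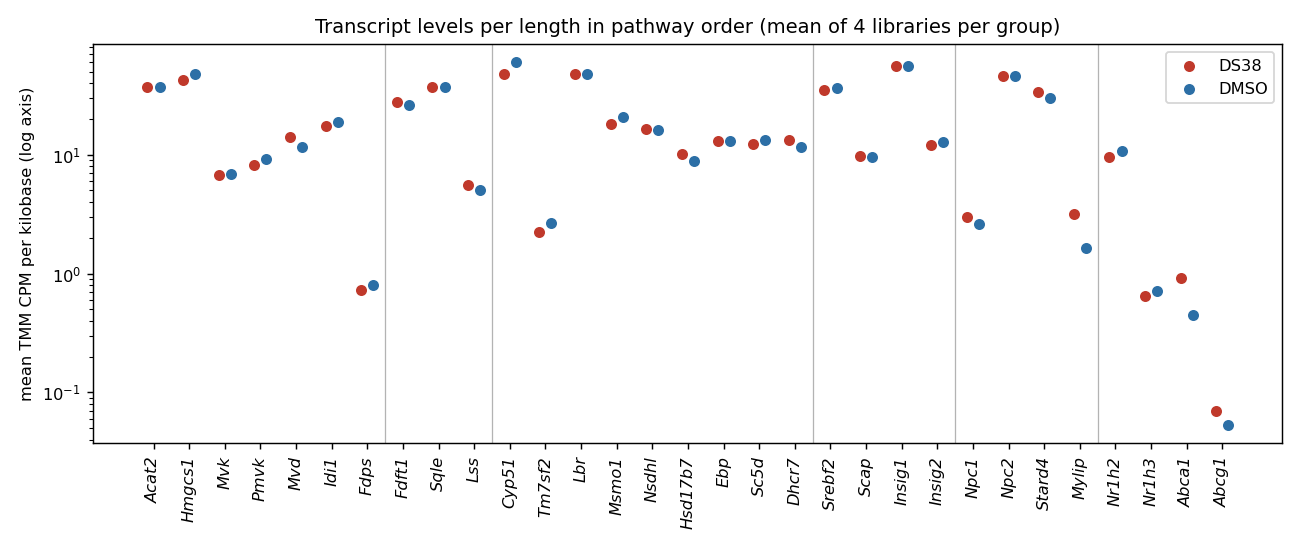
Mean level per kilobase of gene length in the 4 DS38 libraries (red, left) and the 4 DMSO libraries (blue, right) for all 31 genes in pathway order, on a log axis. All enzymes but Fdps and Tm7sf2 lie between 5.02 and 60.2 CPM per kilobase, and Abca1 and Mylip show the widest gaps between the groups.

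Fdps, which encodes farnesyl diphosphate synthase, was an exception among the enzymes at 0.721 CPM per kilobase in DS38 and 0.802 in DMSO. In the GENCODE transcripts, 4 processed pseudogenes match Fdps at 95% identity or more over at least 200 bases, and one of them, Gm3571, was credited with 591 reads over the 8 libraries, against 558 for Fdps itself. How reads with several possible origins were handled is not known, which makes the Fdps level uncertain. Fdft1 and Idi1 have such copies too, and Acat2 has a close relative in Acat3 and shares a near-identical stretch with Tcp1. Exonic bases were shared with another annotated gene by 11 of the 31 members, among them Fdft1 with Ctsb, Tm7sf2 with Vps51, and Cyp51 with Akap9. Tm7sf2 and Vps51 lie on the same strand, as do Fdps and Gm43738, and Nr1h3 and Gm13783, so that strand could not separate their shared bases. The other pairs named lie on opposite strands, and whether the counting used strand is not known. Values of these genes carry that uncertainty.

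The comparison asks which of these transcripts differ after 5 days with the compound. Genes were tested with edgeR's quasi-likelihood test, with Benjamini-Hochberg adjustment over all 15133 genes kept by the filter on low counts and a threshold of 0.05. Of the 31 members, 30 were tested, and Abcg1 fell under the filter. The test called 8 members higher and 6 lower with DS38, and 16 did not pass, so 46.7% of the tested members were called, against 39.5% of all tested genes (18.8% raised, 20.7% lowered). The median log2 fold change of the members was -0.0072, beside -0.0093 over all tested genes. Most changes were small, and 2 of the 30 members, Abca1 and Mylip, differed by 1.5-fold or more (6.67%, against 9.46% of all tested genes). The libraries of the groups did not overlap for 6 members above and 4 below, whereas 17.3% of all tested genes lay wholly above and 18.8% wholly below (36.1% on either side).

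Of the 14 calls, 6 held in each of 18 alternative settings, those of Abca1, Mylip, Stard4, Npc1, Hsd17b7 and Cyp51. The count of lowered members was the less stable one, with 2 left without DS38 replicate 1 or without DS38 replicate 2, and 3 without DMSO replicate 1 or DMSO replicate 2. Scaling by library totals alone gave 9 raised and 1 lowered member, in place of 8 and 6, and raised calls then made up 64.3% of all calls among tested genes, in place of 47.5%. The count of raised members was 5 without DMSO replicate 3.

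**Figure D2:**
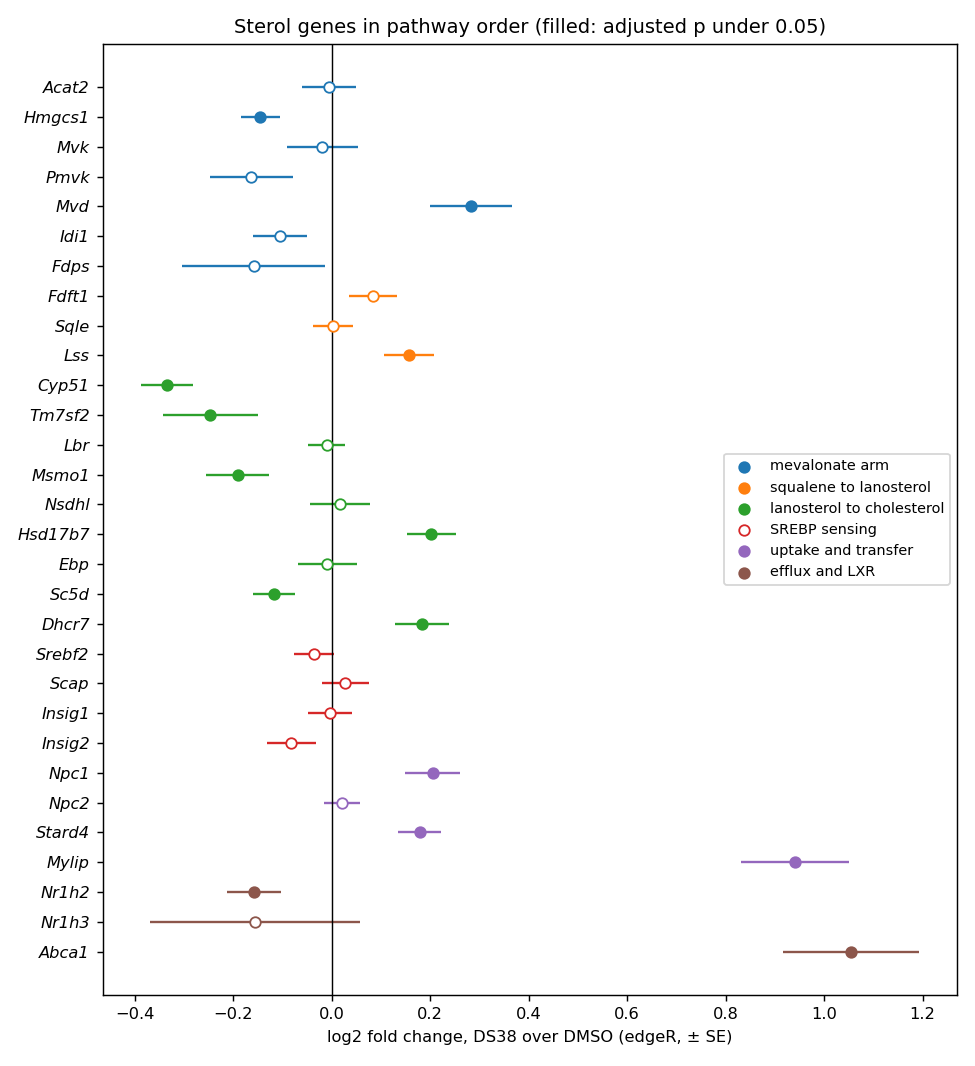
Log2 fold change of DS38 over DMSO with its SE for the 30 tested members, from the first step of synthesis at the top to export at the bottom. Filled points passed an adjusted p of 0.05, and Mylip (0.94) and Abca1 (1.05) stand apart from the others, which lie between -0.33 and 0.28.

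The largest rise was that of Abca1 (ENSMUSG00000015243), which encodes the pump that hands cholesterol and phospholipid to lipid-poor apolipoproteins. It had 10.5, 11.3, 9.51 and 6.82 CPM in DS38 replicates 1 to 4, against 4.37, 4.74, 4.35 and 5.10 CPM in DMSO replicates 1 to 4. The groups did not overlap, although DS38 replicate 4 lay nearest to DMSO. The means were 9.55 ± 1.97 CPM in DS38 and 4.64 ± 0.356 CPM in DMSO (SD, n = 4 each), a 2.08-fold rise (log2 fold change 1.05 ± 0.138 SE, adjusted p = 1.32e-05 by edgeR). With one library left out at a time the log2 fold change stayed between 0.95 and 1.19. Since RNA was taken from whole cultures, more or fewer cells expressing a gene and more or less RNA per cell cannot be told apart, here and below.

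Mylip (ENSMUSG00000038175), also called Idol, encodes the ubiquitin ligase that LXR induces to remove lipoprotein receptors from the cell surface. DS38 libraries had 11.4, 9.15, 9.51 and 11.1 CPM, and DMSO libraries had 5.09, 6.0, 5.65 and 4.64 CPM. Every DS38 library was above every DMSO library, with means of 10.3 ± 1.12 CPM in DS38 and 5.35 ± 0.599 CPM in DMSO (SD, n = 4 each), a 1.92-fold rise (log2 fold change 0.94 ± 0.110 SE, adjusted p = 2.54e-06 by edgeR). Both genes are textbook LXR targets, and their log2 fold changes were higher than those of 98.7% (Abca1) and 98.1% (Mylip) of tested genes. More genes drew reads in each DS38 library (23253 to 25410) than in any DMSO library (21696 to 22863). The part of that difference in the rises of these weakly expressed genes was not tested.

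The LXR genes themselves did not rise. Nr1h2 had 31.6, 31.3, 33.4 and 33.2 CPM in DS38, against 38.8, 36.7, 35.0 and 33.5 CPM in DMSO, and the groups met without overlapping. Its log2 fold change was -0.16 ± 0.055 SE (edgeR adjusted p = 0.0296), a call lost without DS38 replicate 1 (adjusted p = 0.0675), DS38 replicate 2 (0.0963), DMSO replicate 1 (0.104) or DMSO replicate 2 (0.0715). Nr1h3 was low, at 1.62 ± 0.330 CPM in DS38 and 1.77 ± 0.398 CPM in DMSO (SD, n = 4 each), and did not pass (log2 fold change -0.16, 95% interval -0.60 to 0.29). Abcg1, a second export pump gene that LXR also induces, had 44 reads over the DS38 libraries and 34 over the DMSO libraries. Without the filter on low counts its log2 fold change was 0.32 ± 0.398 SE (edgeR adjusted p = 0.594), and it did not pass.

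Of the 4 uptake and transfer genes, Mylip among them, 3 rose, where 18.8% of all tested genes did. Stard4, which encodes a soluble protein that carries cholesterol between membranes, had 194, 184, 197 and 183 CPM in DS38, against 179, 158, 166 and 166 CPM in DMSO. The highest DMSO library stayed just under the lowest DS38 library (log2 fold change 0.18 ± 0.043 SE, adjusted p = 0.00316 by edgeR). Npc1, the membrane protein that lets cholesterol out of the lysosome, had 34.5, 34.8, 33.5 and 32.4 CPM in DS38, against 30.5, 26.8, 29.3 and 30.8 CPM in DMSO. Its groups did not overlap either (log2 fold change 0.20 ± 0.056 SE, adjusted p = 0.00722 by edgeR). Npc2, the lysosomal carrier that passes cholesterol to Npc1, was at 252 ± 5.63 CPM in DS38 and 249 ± 4.98 CPM in DMSO (SD, n = 4 each) and did not pass the test, with a 95% interval of -0.056 to 0.098 for the log2 difference.

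None of the 4 genes that sense sterols and control SREBP2 passed the edgeR test, which called 39.5% of all tested genes. Beside that share, a count of 0 among 4 genes says little about them as a set. None of the 4 had an unadjusted p under 0.05, and 0 were called in any of the 18 settings, DESeq2 and limma included. Their log2 differences are given with 95% intervals. Srebf2 had 264, 250, 244 and 257 CPM in DS38, against 271, 253, 253 and 264 CPM in DMSO, and its log2 difference was -0.036 (interval -0.12 to 0.047). Insig1, itself induced by SREBP2 and widely used as its readout, had 173, 166, 168 and 177 CPM in DS38, against 185, 170, 160 and 171 CPM in DMSO. The groups overlapped throughout, and the log2 difference was -0.0035 (interval -0.096 to 0.089). Scap, the escort, differed by 0.027 (interval -0.074 to 0.13), and Insig2, the second retention factor, by -0.083 (interval -0.19 to 0.021).

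**Figure D3:**
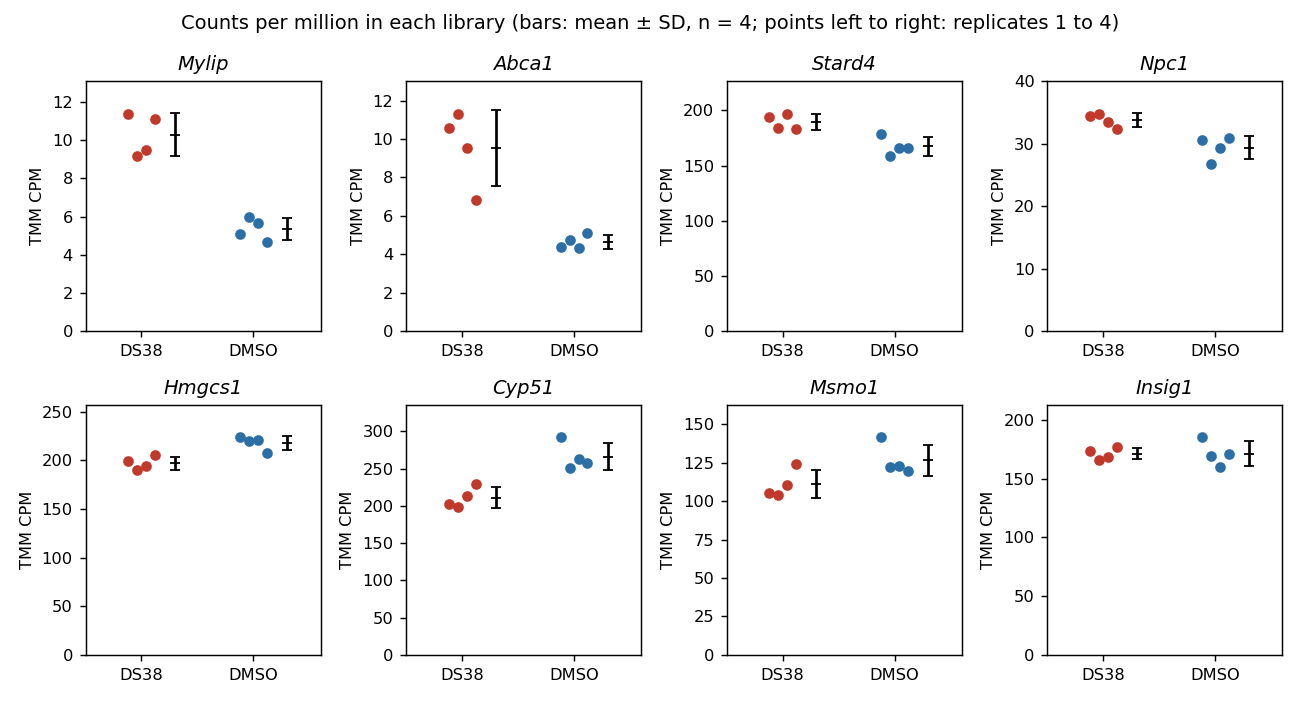
TMM-scaled CPM of 8 members in every library, DS38 at the left and DMSO at the right of each panel, with the mean and SD beside the points (n = 4). Mylip and Abca1 separate widely, Stard4, Npc1, Hmgcs1 and Cyp51 separate narrowly, and Msmo1 and Insig1 overlap. The synthesis enzymes drawn, Hmgcs1, Cyp51 and Msmo1, were all called lower. The 4 enzymes called higher, Mvd, Lss, Hsd17b7 and Dhcr7, are not drawn.

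Among the 19 synthesis enzymes, 4 rose, 5 fell and 10 did not pass, with a median log2 fold change of -0.011. Over all tested genes 18.8% rose and 20.7% fell, and the counts of each synthesis step below stand against the same shares. The mevalonate arm, which supplies the isoprenoid units, had 1 rise and 1 fall among 7 genes. Hmgcs1, which encodes HMG-CoA synthase, had 199, 190, 194 and 205 CPM in DS38, against 224, 220, 220 and 207 CPM in DMSO. Its groups did not overlap, and DS38 replicate 4 came close to DMSO replicate 4 (log2 fold change -0.15 ± 0.040 SE, adjusted p = 0.00708 by edgeR). With scaling by library totals only, the call was lost (adjusted p = 0.0946), and over the 18 settings the adjusted p ranged between 0.00219 and 0.0946.

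Mvd, which encodes the mevalonate diphosphate decarboxylase, went the other way. It had 27.4, 26.4, 23.5 and 27.3 CPM in DS38, against 25.8, 19.9, 19.7 and 20.3 CPM in DMSO, so that DMSO replicate 1 lay within the DS38 values (log2 fold change 0.28 ± 0.084 SE, adjusted p = 0.0134 by edgeR, or 0.0506 without DMSO replicate 3). The other mevalonate genes did not pass. Their log2 differences were -0.0055 for the thiolase gene Acat2, -0.019 and -0.16 for the kinase genes Mvk and Pmvk, -0.11 for the isomerase gene Idi1 and -0.16 for Fdps. Idi1 was called lower without DS38 replicate 4 (adjusted p = 0.0472).

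Of the genes that turn farnesyl diphosphate into lanosterol, 1 of 3 passed. Lss, the lanosterol synthase gene, had 61.3, 58.0, 57.8 and 64.7 CPM in DS38, against 57.6, 51.9, 51.2 and 55.8 CPM in DMSO. The groups touched without overlapping (log2 fold change 0.16 ± 0.051 SE, adjusted p = 0.0204 by edgeR). The call was lost without DS38 replicate 4 (adjusted p = 0.0574), DMSO replicate 2 (0.0700) or DMSO replicate 3 (0.0742), and after a trend with gene length was removed (0.133). Sqle, whose product squalene epoxidase is a slow step of the pathway, was at 205 ± 8.01 CPM in DS38 and 204 ± 7.09 CPM in DMSO (SD, n = 4 each), a log2 difference of 0.0016 with a 95% interval of -0.084 to 0.087. Fdft1, the squalene synthase gene, did not pass (log2 difference 0.083), though it was called higher without DMSO replicate 1 (adjusted p = 0.0342), without both libraries numbered 1 (0.0133) and with scaling by library totals alone (0.0219).

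The 9 genes that convert lanosterol to cholesterol split by step, with 2 rises, 4 falls and 3 that did not pass. Cyp51, whose product removes the C14 methyl group of lanosterol, had the largest fall of the members. It had 203, 198, 213 and 230 CPM in DS38, against 292, 251, 263 and 257 CPM in DMSO. Every DS38 library was below every DMSO library (means 211 ± 13.9 CPM in DS38 and 266 ± 18.2 CPM in DMSO, SD, n = 4 each, log2 fold change -0.33 ± 0.053 SE, adjusted p = 9.93e-05 by edgeR). The next methyl groups are removed by the products of Msmo1, Nsdhl and Hsd17b7, which did not move together.

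Msmo1, the C4 methyl oxidase gene, had 105, 104, 111 and 124 CPM in DS38, against 142, 122, 123 and 119 CPM in DMSO. DS38 replicate 4 overlapped the DMSO values (log2 fold change -0.19 ± 0.063 SE, adjusted p = 0.0281 by edgeR), and the call was lost without DS38 replicate 1 (adjusted p = 0.0579), DS38 replicate 2 (0.0853) or DMSO replicate 1 (0.0658). Nsdhl, the C4 decarboxylase gene, did not pass (log2 difference 0.016, 95% interval -0.11 to 0.15). Hsd17b7, the 3-keto reductase gene, had 55.3, 50.1, 50.2 and 51.0 CPM in DS38, against 46.2, 46.8, 42.2 and 44.2 CPM in DMSO. All DS38 libraries were higher (log2 fold change 0.20 ± 0.049 SE, adjusted p = 0.0033 by edgeR).

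The last steps differed by gene as well. Dhcr7, whose product makes cholesterol from 7-dehydrocholesterol, had 75.2, 76.5, 72.6 and 83.5 CPM in DS38, against 75.2, 66.5, 64.0 and 65.1 CPM in DMSO. Only DMSO replicate 1 reached the DS38 range (log2 fold change 0.18 ± 0.055 SE, adjusted p = 0.0136 by edgeR, or 0.0540 without DMSO replicate 3). Sc5d, which encodes the desaturase just before Dhcr7, had 58.3, 58.3, 62.7 and 59.5 CPM in DS38, against 63.4, 67.1, 64.4 and 63.7 CPM in DMSO (log2 fold change -0.12 ± 0.043 SE, adjusted p = 0.0367 by edgeR). That call was lost in 11 of the 18 settings, among them those without DS38 replicate 1 (adjusted p = 0.0961), DS38 replicate 2 (0.110), DS38 replicate 4 (0.0683), DMSO replicate 2 (0.112) or DMSO replicate 3 (0.0549).

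Tm7sf2 stood at 9.46, 9.12, 8.99 and 12 CPM in DS38, against 12.7, 11.6, 11.2 and 11.2 CPM in DMSO, with DS38 replicate 4 inside the DMSO range. Its log2 fold change of -0.25 passed by a narrow margin (edgeR adjusted p = 0.049) and held in 4 of the 18 settings, with an adjusted p of 0.00505 without DS38 replicate 4 and of 0.0542 to 0.154 without any other single library. Lbr, which shares the C14 reductase activity and also anchors chromatin at the nuclear envelope, was at 227 ± 1.63 CPM in DS38 and 228 ± 9.12 CPM in DMSO (SD, n = 4 each) and did not pass. Ebp, the sterol isomerase gene, did not pass either, with a log2 difference of -0.009 and a 95% interval of -0.13 to 0.12.

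Single libraries stood high for most of the synthesis enzymes. DMSO replicate 1 had the highest level of the 4 DMSO libraries for 16 of the 19 enzymes, and DS38 replicate 4 had the highest of the 4 DS38 libraries for 14 of the 19. Summed over the 19 enzymes, the DS38 libraries had 1588, 1565, 1610 and 1707 CPM, against 1808, 1659, 1655 and 1634 CPM in the DMSO libraries. DS38 replicate 4 was thus above 3 of the DMSO libraries, and the sums overlapped between the groups. Of the 7 enzyme calls lost in at least 1 setting, all but that of Hmgcs1 were lost without a single library, and the cause of the spread within a group was not tested.

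The other genes of sterol handling were 53 in 6 lists, of which the test covered 49. Log2 fold changes of these 49 genes ran from -1.21 to 0.58, beside -0.33 to 1.05 among the members. The test called 14 of the 49 higher and 17 lower, leaving 18, where 18.8% of all tested genes were called higher and 20.7% lower. The lists were chosen with earlier results of these data known, so these counts are descriptive only. The median log2 fold change of the 49 was 0.02, beside -0.0093 over all tested genes. The counts of each list below stand against the same shares. The lipoprotein receptors showed the largest change. Vldlr (ENSMUSG00000024924), which encodes the very low density lipoprotein receptor, also a receptor for reelin in neurons, had 102, 109, 96.2 and 84.8 CPM in DS38, against 212, 226, 240 and 233 CPM in DMSO. Every DS38 library was far below every DMSO library, and the means were 98.0 ± 10.1 CPM in DS38 and 228 ± 11.9 CPM in DMSO (SD, n = 4 each), a 2.32-fold fall (log2 fold change -1.21 ± 0.066 SE, adjusted p = 1.41e-08 by edgeR). The 2 other receptor genes that fell were Scarb1, the high density lipoprotein receptor gene (-0.43 on the log2 scale, edgeR adjusted p = 1.35e-06), and Lrp8, the sister reelin receptor gene (-0.20, edgeR adjusted p = 0.000734). Lrp1, the fourth, had 64.2, 73.8, 55.1 and 49.0 CPM in DS38, against 43.7, 28.9, 38.7 and 51.9 CPM in DMSO, overlapped, and did not pass (edgeR adjusted p = 0.0703).

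**Figure D4:**
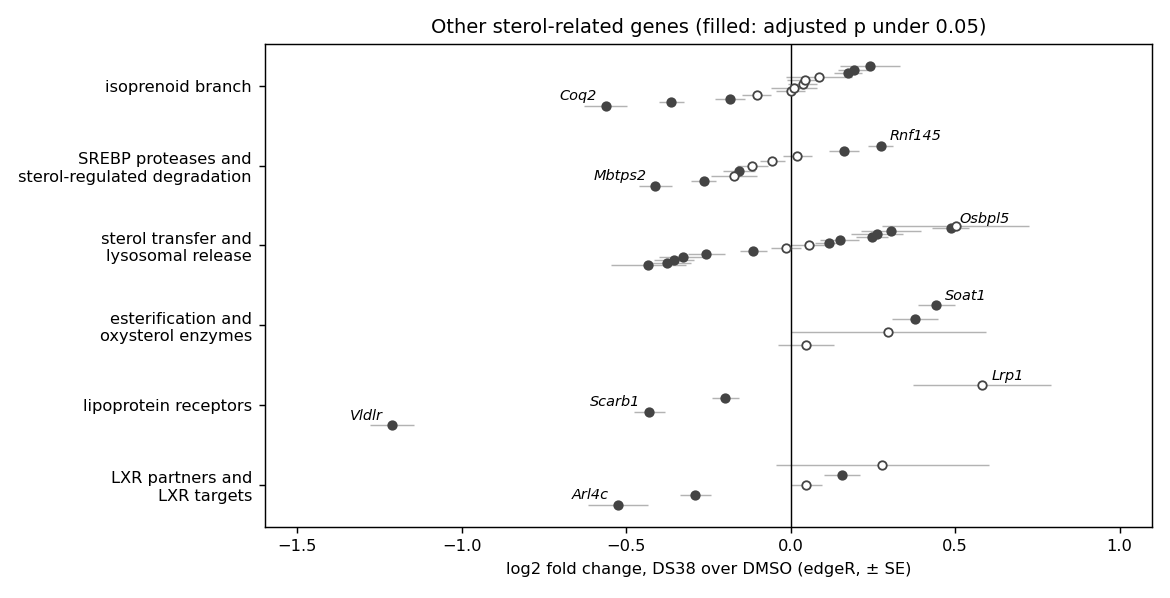
Log2 fold change of DS38 over DMSO with its SE for the 49 tested genes of the 6 other sterol lists, one list per row, filled where the adjusted p was under 0.05. Vldlr lies furthest from 0, at -1.21, and the lists other than the receptors and the esterification enzymes hold called genes on both sides.

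Of the 4 tested genes of the esterification and oxysterol list, 2 rose. Soat1, whose product esterifies cholesterol for lipid droplets, was at 40.5 ± 2.43 CPM in DS38 and 29.8 ± 1.64 CPM in DMSO (SD, n = 4 each, log2 fold change 0.44 ± 0.057 SE, adjusted p = 7.70e-06 by edgeR), and Nceh1, a cholesteryl ester hydrolase gene that acts in the opposite direction, at a mean of 26 CPM in DS38 and 20.1 CPM in DMSO (0.38 ± 0.070 SE on the log2 scale, edgeR adjusted p = 0.000309). Ch25h, whose product makes 25-hydroxycholesterol, had no reads in any library.

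Genes around SREBP cleavage and the sterol-regulated degradation of enzymes went both ways, with 2 rises and 3 falls among 9. Mbtps2, the site 2 protease gene that frees SREBP from the membrane, fell to 90.5 ± 6.16 CPM in DS38, against 120 ± 6.07 CPM in DMSO (SD, n = 4 each, log2 fold change -0.41 ± 0.050 SE, adjusted p = 4.79e-06 by edgeR). Rnf145, a ubiquitin ligase gene that LXR is known to induce in mouse liver, rose (log2 fold change 0.27, edgeR adjusted p = 2.06e-05). The LXR partner and target list had 1 rise and 2 falls among 5. The heterodimer partner gene Rxrb (log2 fold change -0.29) and the LXR target gene Arl4c (-0.53, edgeR adjusted p = 0.000205) fell. Lpcat3, an LXR-induced phospholipid remodelling gene, had a log2 rise of 0.16 (edgeR adjusted p = 0.0322), and this call held in 10 of the 18 settings and was lost without DS38 replicate 1 (adjusted p = 0.0510), DS38 replicate 2 (0.0988), DMSO replicate 1 (0.0809), DMSO replicate 2 (0.106) or DMSO replicate 4 (0.0524).

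The branch that uses isoprenoids for other products had 3 rises and 3 falls among 12. Coq2, whose product attaches the tail of coenzyme Q, fell to 17.6 ± 1.23 CPM in DS38, against 25.8 ± 1.26 CPM in DMSO (SD, n = 4 each, log2 fold change -0.56, edgeR adjusted p = 2.47e-06). Icmt, which methylates prenylated proteins (log2 fold change -0.36), and Dhdds, a subunit gene of the dolichol synthase (-0.18), fell too. Sterol transfer and lysosomal release genes had 6 rises and 6 falls among 15. The oxysterol-binding protein family members Osbpl5 (log2 fold change 0.49, edgeR adjusted p = 2.35e-06), Osbpl6 (-0.35) and Osbpl1a (-0.38) had the smallest p of that list.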

How the data were processed

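RNA-seq libraries of 8 samples of MB21 cells were compared, 4 with DS-1-38 and 4 with DMSO, grouped by their labels. The deposited table holds raw read counts per gene and a gene length in bases, as the authors made it. Per the submitters' processing notes, the tools were featureCounts and Subread 2.0.3, STAR 2.7.9a, and edgeR with R 4.1.0, and the builds GRCm39 and GRCh38.p13 are named with no roles. Strand setting, multi-mapping rule and annotation release: not given in the sources used here. Per the labels' protocols, libraries were made with a Kapa mRNA kit from RNeasy RNA.

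Gene names were matched for 52083 of 55416 identifiers. Counts were filtered with filterByExpr (minimum count 10), scaled by TMM and tested in edgeR 4.0.16 (R 4.3.3) with the robust quasi-likelihood test over 15133 genes. The common biological coefficient of variation was 5.53%. SE was taken as the size of the log2 difference over the root of its F statistic. limma 3.58.1 and DESeq2 1.42.0 served as alternatives, and the procedure was tested on simulated data with changes of 1.25-fold or more. Smaller changes, as in 27 of the 30 tested members, were not simulated. Near-identical transcripts (95% identity, 200 bases) were sought with BLAST 2.17.0. Promoters are RefSeq, GRCm38.p6, which is not the counts' build. The text names all 31 members and, of each other list, up to 3 called genes with the smallest p. One gene chosen by that rule is not reported here. Lrp1 and Ch25h were added after their values were seen. The members and lists were chosen with earlier results of these data known. Intervals and floors cover the spread of these libraries or counting error only.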

Additional observations from a re-analysis of the deposited data

Results flagged for a closer look

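In 9 of 62 groups of 4 libraries, 1 library stood apart from the other 3, with a gap to its nearest neighbour that took a larger part of the group's range than Dixon's 95% limit allows. Chance flags about 1 in 20 such groups. In DS38 libraries, replicate 4 was high for Acat2 (102 CPM, nearest 91.4, gap share 0.896) and for Tm7sf2 (12 CPM, nearest 9.46, gap share 0.842). In DMSO libraries, replicate 1 was high for Mvd (25.8 CPM, nearest 20.3, gap share 0.913), Msmo1 (142 CPM, nearest 123, gap share 0.851) and Ebp (32.9 CPM, nearest 29.8, gap share 0.854). DMSO replicate 2 was low for Fdps (3.0 CPM, nearest 3.45, gap share 0.843). DMSO replicate 3 was low for Insig2 (41.0 CPM, nearest 45.8, gap share 0.883) and for Abcg1 (0.163 CPM, nearest 0.435, gap share 0.853). DMSO replicate 4 was low for Scap (67.0 CPM, nearest 72.0, gap share 0.845). Of these genes, Mvd, Msmo1 and Tm7sf2 were called, and their calls without single libraries stand beside their values above.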

How the results depend on the processing

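Over 18 alternative settings, 6 of 14 member calls and 16 of 17 calls of other named genes held, Lpcat3 being the exception. The 6 lowered members became 1 with library totals alone, 3 with DESeq2's Wald test, 3 with the replicate block and 2 without both libraries numbered 1, and 2 to 6 with 1 library left out. Raised members numbered 8, and 5 to 9 with 1 library left out. Other sterol genes gave 14 raised (9 to 13, with 9 without DMSO replicate 2) and 17 lowered (15 to 19). All tested genes gave 2840 raised (2329 to 2840) and 3140 lowered (2608 to 3072). Library totals alone moved the median log2 fold change of all tested genes to 0.051, against -0.0093 with TMM. The cause of these shifts was not tested.

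Changes of sign were seen only in 9 members that did not pass the test. With library totals alone the log2 differences were 0.055 for Acat2, 0.042 for Mvk, 0.050 for Lbr, 0.052 for Ebp, 0.024 for Srebf2 and 0.057 for Insig1. With the length trend removed they were 0.035 for Acat2, 0.018 for Mvk, -0.013 for Sqle, 0.038 for Ebp, -0.0067 for Scap and 0.022 for Insig1. Without both libraries numbered 1 they were 0.059 for Acat2, 0.045 for Mvk, 0.014 for Lbr, 0.068 for Ebp and 0.030 for Insig1. The filter of 50 counts gave 0.010 for Acat2, 0.0051 for Lbr, 0.0069 for Ebp and 0.012 for Insig1, and Nr1h3 had no value there. DESeq2 size factors gave 0.0014 for Acat2 and 0.0035 for Insig1, the Wald test 0.0019 and 0.0034, and no filter -0.010 for Sqle. With 1 library left out, the ranges were -0.046 to 0.040 for Acat2, -0.058 to 0.023 for Mvk, -0.020 to 0.024 for Sqle, -0.030 to 0.015 for Lbr, -0.038 to 0.071 for Nsdhl, -0.040 to 0.033 for Ebp, -0.0024 to 0.066 for Scap and -0.036 to 0.036 for Insig1.

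Libraries of the same number were not paired by the labels, and their deviations correlated at 0.331, -0.070, 0.067 and -0.082, so the block is an alternative only. With it the calls of Tm7sf2 (adjusted p = 0.0612), Sc5d (0.0735) and Nr1h2 (0.0626) were lost. Not every library correlated best with its own number. Abcg1 and Nr1h3 had the fewest reads of the members, and their values are the least precise.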
